A study of Homo sapiens with 6 samples.

Results

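Gene expression in DMS-53 cells, an established human small cell lung cancer line, was compared between cells kept for 24 h in medium with 250 µM desferrioxamine (DFO) and cells kept for 24 h in control medium. The comparison was between 4 of the 6 arrays of the series, namely the 2 DFO arrays (DFO 1 and DFO 2) and the 2 control arrays (control 1 and control 2). It described the change in every annotated gene rather than in chosen stress pathways. The other 2 arrays came from the same line after 24 h in 25 µM of the thiosemicarbazone chelator Dp44mT. They also entered the normalization, the filter on low signal, the choice of probe sets and the estimate of the spread behind every test. As far as the labels say, the groups differed in the chelator only. The numbers 1 and 2 are the set numbers of the sample titles. Nothing in the labels says that the arrays of a group came from separate cultures, so p-values measure the spread between these arrays only, which may be technical. The results apply to a single cell line.

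DFO is a bacterial siderophore that binds ferric iron tightly and enters cells slowly. Cells need iron for haem, for iron-sulfur clusters, for di-iron enzymes such as ribonucleotide reductase and for the 2-oxoglutarate oxygenases. The last family includes the prolyl hydroxylases that mark the hypoxia-inducible factors for degradation, so that iron chelators and low oxygen are known to stabilise these factors in many cell types. Chelators are also known to stop the cell cycle and to engage stress kinases and the integrated stress response.

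RNA was measured on Affymetrix U133 Plus 2.0 arrays, which carry 1 or several probe sets for each gene. Values below are log2(intensity + 16) after quantile normalization, and differences are DFO minus control on that scale, with the standard error (SE) of limma's moderated test and n = 2 arrays per group throughout. Each gene was represented by its brightest probe set, and 16868 genes passed the filter on low signal. A gene was called at a Benjamini-Hochberg adjusted p under 0.05 over all of these genes. A second, purely descriptive rule, the separation rule, asked that the DFO and control arrays not overlap and that their means differ by at least 1.

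The deposited array medians were 88.9 and 88.8 in control and 85.5 and 63.0 in DFO, and the correlation between replicates across genes, which are not independent, was 0.971 for control and 0.918 for DFO. DFO 2 stood apart from DFO 1: it was higher by at least 1 in 1720 genes and lower by as much in 529, whereas control 2 was higher than control 1 by at least 1 in 22 genes and lower in 564. Of those 1720 genes, 1306 (75.9%) were also higher by at least 1 on the second Dp44mT array than on the first, and 0 were called. A gap between the arrays of a group widens the spread used in the test, so this 0 follows largely from the calling rule. Markers of the line were present on all 4 arrays. The 11 measured small cell and neuroendocrine markers had means of 10.66 and 10.77 in control and 10.19 and 10.07 in DFO, and the means of the 5 epithelial markers lay between 11.75 and 12.06. The 10 fibroblast markers had means of 6.97 and 6.27 in control, 6.79 on DFO 1 and 7.52 on DFO 2, with 7 of 10 highest on DFO 2 among these 4 arrays. For endothelial markers this was so for 4 of 8 and for leukocyte markers for 3 of 6. Single markers of these types differed. PDGFRB and FAP, which mark fibroblasts, CDH5, which marks endothelium, and PTPRC, which marks leukocytes, lay at or below 5.57 on every one of the 4 arrays. PECAM1, an adhesion gene of endothelium, was at 9.32 and 8.04 in control and 8.75 and 10.50 in DFO, and the fibroblast markers COL1A2, COL3A1, DCN and POSTN reached 8.92 to 9.26 on DFO 2. The part of such transcripts in the results was not tested.

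In DFO, 175 genes were called higher, 1.04% of those tested, and 10 were called lower, 0.0593%. The median difference over all genes was -0.03, with quartiles of -0.31 and 0.26. On the separation rule, 514 genes were higher (3.05%) and 519 lower (3.08%), so that the excess of increases among the called genes was not seen there. Of the 514 higher genes, 98 were among those with DFO 2 above DFO 1 by at least 1. At an unadjusted p under 0.05, 971 genes were higher and 1280 lower. All 185 called genes had both DFO arrays at least 1 away from both control arrays, and in 1 of them the DFO arrays differed from each other by 1 or more. The test disfavours genes whose arrays differ within a group, so this low count follows in part from the calling rule.

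**Figure D1:**
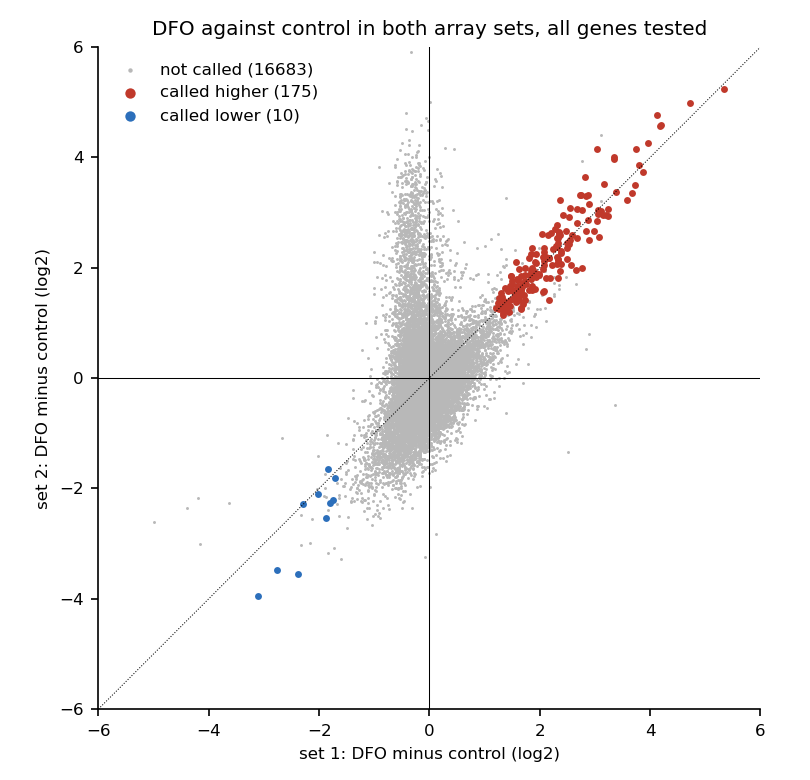
DFO minus control (log2) in set 1 on the horizontal axis and in set 2 on the vertical axis, 1 point per gene, with the 175 genes called higher in red, the 10 called lower in blue and the other 16683 in grey. The dotted line marks equal differences. Called genes lie along it, which the calling rule favours, while a band of uncalled genes was high in set 2 only.

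How many genes were called depended on the arrays and the scaling. With the DFO and control arrays fitted alone, 58 genes were called higher and 1 lower, and without the second array of each chelator 74 were called higher. On the deposited scale without quantile normalization, where the median of all genes shifted to -0.32, 18 were higher and 8 lower, so that increases made up 69.2% of calls in place of 94.6%. With any single array of the 4 left out, limma called 0 genes, although between 861 and 2391 genes then had an unadjusted p under 0.05.

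The transferrin receptor gene TFRC, which the series' design text names as the iron-responsive gene behind the choice of doses, was at 11.55 and 11.71 in control and 12.47 and 12.46 in DFO. The DFO arrays lay above both control arrays, by 0.84 in the mean (SE 0.17), but the gene was not called (limma adjusted p = 0.128). In the test over all probe sets, another TFRC probe set was called at 1.49 (limma adjusted p = 0.0433).

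The 30 increases that ranked from 11 to 40 by size ran from 12.6-fold to 6.68-fold. The ranking took only called genes with both DFO arrays above both control arrays, a condition that every gene called higher met. They took in iron-dependent enzymes, inhibitors of growth factor and kinase signalling, small GTPases, transcription factors and secreted proteins. Among enzymes that themselves need iron, P4HA1, a catalytic subunit of collagen prolyl 4-hydroxylase, was at 8.11 and 7.88 in control and 11.49 and 11.26 in DFO. KDM3A, a histone H3 lysine 9 demethylase, was at 9.38 and 9.33 in control and 12.49 and 12.36 in DFO, and EGLN3, a prolyl hydroxylase of the hypoxia-inducible factors, was at 6.45 and 5.94 and then at 9.29 and 8.60. In all 3 the groups were far apart, and the differences were 3.38 (SE 0.19), 3.07 (SE 0.16) and 2.75 (SE 0.31), with limma adjusted p of 0.0108, 0.0108 and 0.0332.

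Other genes in this range are known as brakes on signalling. PAG1, a membrane adaptor that recruits the kinase CSK to restrain Src kinases, was at 5.70 and 5.77 in control and 9.42 and 9.26 in DFO, a 12.2-fold increase (SE 0.19 on the log2 scale, limma adjusted p = 0.0108). DUSP5, a nuclear phosphatase of ERK, rose from 6.81 and 6.44 to 9.65 and 9.74, and DUSP1, a phosphatase of MAP kinases, from 8.76 and 9.06 to 11.42 and 11.87. DDIT4, an inhibitor of the mTORC1 kinase complex, was at 8.10 and 7.37 in control and 10.92 and 11.02 in DFO. Its difference of 3.23 (SE 0.28, limma adjusted p = 0.0178) exceeded the gap of the control arrays. CITED2, which competes with hypoxia-inducible factors for the coactivators CBP and p300, was at 6.74 and 6.78 in control and 9.93 and 9.73 in DFO, an increase of 3.07 (SE 0.19).

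Transcription factors and their partners in this range included CREB5, a CREB family factor, at 6.75 and 6.27 in control and 9.90 and 9.78 in DFO. MAFF, a small Maf protein, was at 7.89 and 7.84 and then at 10.95 and 10.89. The zinc finger factor EGR1 rose by 2.81 (SE 0.20). DDIT3, the stress factor also called CHOP, rose by 3.10 (SE 0.19), and PPP1R15A, a regulatory subunit that directs protein phosphatase 1 to the translation factor eIF2α, by 2.81 (SE 0.21). The nuclear protein CSRNP1 and the transcriptional regulator SERTAD1 rose by 3.03 (SE 0.21) and 2.80 (SE 0.33). Limma adjusted p for these 7 genes ran from 0.0108 to 0.0354, and in each of them both DFO arrays exceeded both control arrays, as the ranking required.

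Genes of the cell surface, the matrix and the cytoskeleton made up another group. The chemokine gene CCL20 was at 4.69 and 4.32 in control, under the limit of 5.55 used to filter genes, and at 8.04 and 8.29 in DFO. CCN2, a matricellular growth factor, was at 5.15 and 4.84 and then at 8.29 and 7.80, and TGFBI, a matrix protein, at 6.54 and 6.79 and then at 9.42 and 9.67. TNFRSF12A, the receptor for the cytokine TWEAK, rose by 2.87 (SE 0.22), and STC2, a secreted glycoprotein, by 3.01 (SE 0.17). NEDD9, a docking protein of adhesion signalling, rose by 3.41 (SE 0.22), and the small GTPases RND1 and RND3, which loosen actin stress fibres, by 3.02 (SE 0.20) and 2.82 (SE 0.24). FAM13A rose by 3.04 (SE 0.30), and its antisense neighbour FAM13A-AS1, which was chosen after its value was seen, by 2.18 (SE 0.17). Whether the probe sets of this pair tell the strands apart was not tested.

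The remaining genes in the range were RIT1, a Ras-like GTPase (difference 3.09, SE 0.20), PFKFB3, which makes the glycolytic activator fructose 2,6-bisphosphate (2.94, SE 0.17), the protein O-fucosyltransferase gene POFUT4 (3.14, SE 0.21), the ubiquitin ligase gene NEURL3 (3.51, SE 0.20), MIR210HG and C11orf96. MIR210HG, the host transcript of the microRNA miR-210, was at 5.21 on control 1 and at the floor set by the pseudocount on control 2, where the deposited intensity was 0.18, and at 8.25 and 8.16 in DFO. C11orf96 was at 4.87 and 4.10 in control and 7.62 and 7.14 in DFO (limma adjusted p = 0.0481). This call rested on the choice of probe set: when the DFO and control arrays were fitted alone the gene's other probe set was the brighter, and its difference was -0.25. In 13 of the 175 genes called higher, CCL20, CCN2, MIR210HG, NEURL3 and C11orf96 among them, the control mean was under the filter limit, so the size of their fold changes depends on the pseudocount. The filter used the mean over all 6 arrays, so these 13 genes passed it only through their signal on the chelator arrays. Genes as dim in control could enter the test only if they were higher with a chelator.

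**Figure D2:**
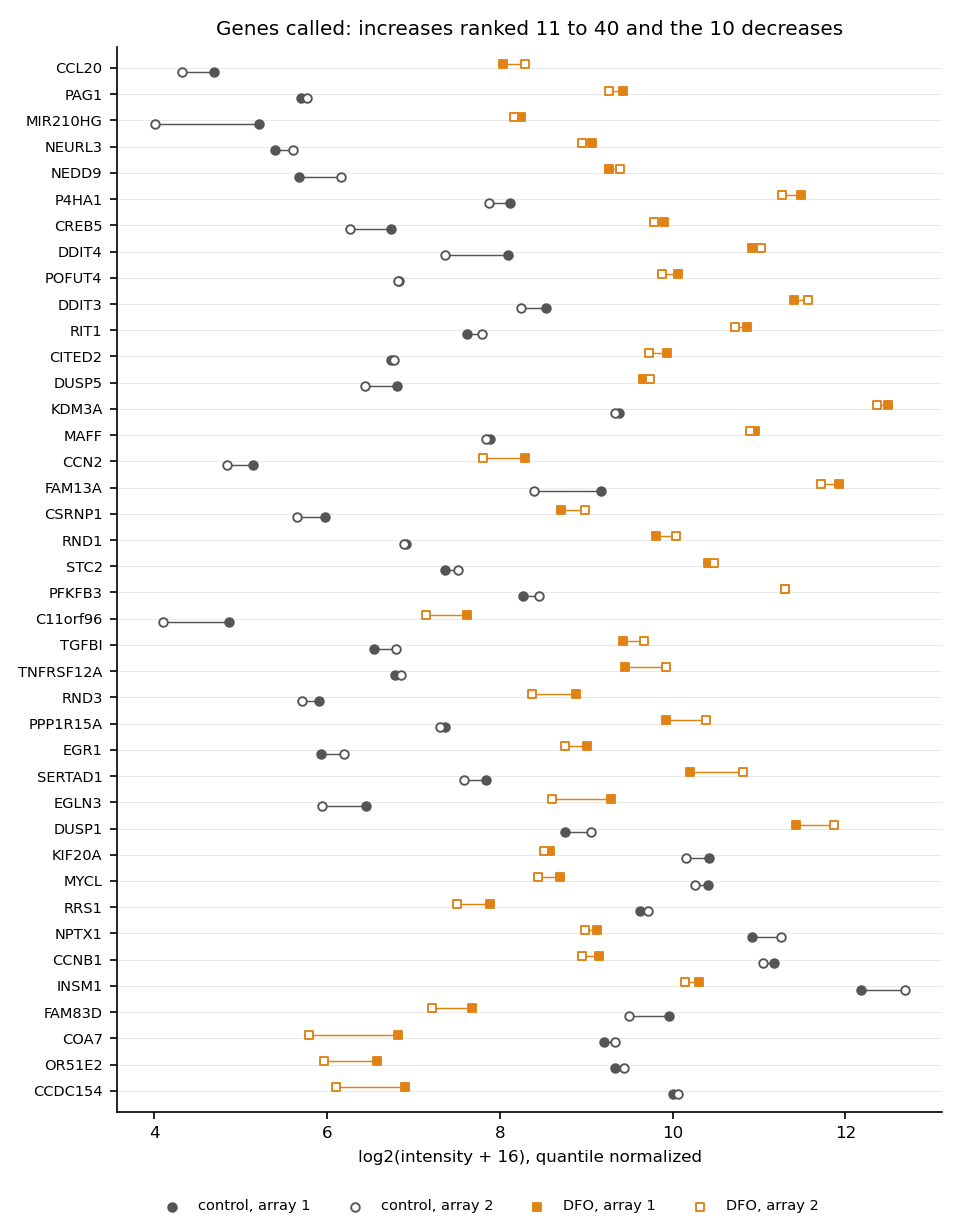
Level in log2(intensity + 16) on each control array (grey circles) and each DFO array (orange squares) for the increases ranked 11 to 40 and the 10 decreases, with filled symbols for array 1, open symbols for array 2 and lines joining the arrays of a group. The groups do not overlap in any of the 40 genes, which the ranking required of the increases. The DFO arrays lie closest together in PFKFB3, at 11.30 and 11.30.

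The 10 genes called lower included 3 with roles in mitosis. CCNB1, the cyclin that drives entry into mitosis, was at 11.17 and 11.05 in control and 9.15 and 8.95 in DFO. KIF20A, a kinesin of cytokinesis, was at 10.43 and 10.15 and then at 8.58 and 8.51, and FAM83D, a spindle protein, at 9.96 and 9.49 and then at 7.67 and 7.21. They fell by 2.06 (SE 0.18), 1.74 (SE 0.21) and 2.28 (SE 0.26), with limma adjusted p of 0.0181, 0.0385 and 0.0332.

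Of the other decreases, 3 were in INSM1, NPTX1 and MYCL. INSM1, a transcription factor of neuroendocrine cells, was at 12.17 and 12.68 in control, among the brightest genes of the line, and at 10.30 and 10.15 in DFO. NPTX1, a neuronal pentraxin, was at 10.92 and 11.25 and then at 9.13 and 8.98, and MYCL, the MYC family gene first found in small cell lung cancer, at 10.41 and 10.25 and then at 8.70 and 8.44. INSM1 fell by 2.21 (SE 0.27), NPTX1 by 2.03 (SE 0.22) and MYCL by 1.76 (SE 0.19), with limma adjusted p from 0.0292 to 0.04. The small cell and neuroendocrine markers other than INSM1 were not called and differed in how they lay. NCAM1 was at 9.58 and 9.13 in control and 8.54 and 7.51 in DFO, NKX2-1 at 10.68 and 10.51 and then at 9.68 and 9.38, and GRP at 11.31 and 11.70 and then at 10.30 and 10.82, without overlap of the groups. UCHL1 was at 12.76 and 12.65 in control and 12.73 and 12.68 in DFO, and CHGA at 9.41 and 9.57 and then at 9.27 and 9.44.

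The last 4 decreases were in genes without a shared role. CCDC154, a coiled-coil protein gene, was at 10.01 and 10.06 in control and 6.91 and 6.10 in DFO, the largest fall of the 10 at 11.6-fold (SE 0.36 on the log2 scale, limma adjusted p = 0.0278). OR51E2, an olfactory receptor gene expressed outside the nose, was at 9.34 and 9.44 and then at 6.58 and 5.97, a fall of 3.11 (SE 0.25). COA7, an assembly factor of cytochrome c oxidase, fell by 2.97 (SE 0.39), and RRS1, which acts in ribosome assembly, by 1.98 (SE 0.22). COA7 had the widest gap between DFO arrays of all called genes, 6.82 against 5.79, yet both stayed far below the control arrays at 9.21 and 9.34.

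Gene groups outside the stress pathways were then described by counts, to be read against 1.04% of all genes called higher, 0.0593% called lower and an all-gene median of -0.03. Iron enzymes were listed without the JmjC demethylases, the collagen hydroxylases and the EGLN prolyl hydroxylases, families that hold the called genes KDM3A, KDM4B (higher by 1.53), P4HA1, PLOD2 (3.83), EGLN1 (2.34) and EGLN3. Of 22 measured other 2-oxoglutarate oxygenases, limma called 0, and 1 was higher and 2 were lower at an unadjusted p under 0.05. The member with the smallest p was ALKBH5, an RNA demethylase, at 10.08 and 9.71 in control and 10.75 and 10.62 in DFO (difference 0.79, SE 0.22, limma adjusted p = 0.228). Of 23 further iron oxygenases and di-iron enzymes 0 were called and 2 were lower at an unadjusted p under 0.05, with ADO, a thiol dioxygenase, at -0.88 (SE 0.21, limma adjusted p = 0.175). At 1.04% of all genes called higher, a count of 0 in lists of this size is near the background.

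In basic metabolism the counts were also near the background. None of 18 citric acid cycle genes and none of 23 mitochondrial import genes was called by limma or met the separation rule, and 1 and 5 of them, respectively, had an unadjusted p under 0.05. Among 20 genes of purine and pyrimidine synthesis and salvage, whose median was -0.31, 1 rose. This was AK4, a mitochondrial adenylate kinase, at 9.27 and 9.25 in control and 11.60 and 11.39 in DFO (difference 2.24, SE 0.20, limma adjusted p = 0.0186), and all 4 of its probe sets lay between 2.01 and 2.27. CAD, which starts pyrimidine synthesis, went the other way without a call, from 8.33 and 8.60 to 7.27 and 6.65.

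Polyamine and methionine genes met the separation rule in both directions, although limma called 0 of 20 and 5 had an unadjusted p under 0.05. SAT1 and SMOX, which break polyamines down, were higher by 1.37 (SE 0.19, limma adjusted p = 0.0543) and 2.32 (SE 0.58, limma adjusted p = 0.192). A dimmer probe set of SAT1 was called at 1.47 in the test over all probe sets (limma adjusted p = 0.039). SRM, which makes spermidine, and MAT2A, which makes the methyl donor S-adenosylmethionine, were lower, at -1.26 (SE 0.22, limma adjusted p = 0.0996) and -1.48 (SE 0.21, limma adjusted p = 0.0578). In lipid metabolism 0 of 27 genes of fatty acid oxidation and storage were called, 3 being higher and 3 lower at an unadjusted p under 0.05. LPIN1 and LPIN2, phosphatidate phosphatases, lay at 1.17 and 1.04, and DGAT2, which makes triacylglycerol, at -1.70. Another LPIN2 probe set was called at 1.34 in the test over all probe sets (limma adjusted p = 0.0495).

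Of the signalling lists, those of Wnt genes (0 of 31, median -0.10) and of Hedgehog and cilium genes (0 of 28, median -0.08) held no call by limma, with 5 and 2 genes at an unadjusted p under 0.05. In the cytokine list 1 of 26 rose, the interleukin 6 receptor gene IL6R (by 2.38). In the list of cAMP, G protein and RGS genes 3 of 41 rose: CREB5, CREM, a cAMP-responsive factor (7.96 and 7.90 in control, 9.44 and 9.76 in DFO), and RGS2, which turns off G protein signals (8.77 and 8.68, then 10.24 and 10.35). In the interferon list 3 of 28 rose, namely the interferon regulatory factors IRF7 (7.53 and 7.44, then 9.46 and 9.70) and IRF1 (7.61 and 7.86, then 9.45 and 9.81) and the exonuclease ISG20 (8.53 and 8.55, then 10.36 and 10.42). Their differences were 2.09, 1.90 and 1.85, and the median of the interferon list was 0.19, or -0.05 on the deposited scale. Insulin and PI3K signalling held 2 increases among 29 genes, the pseudokinases TRIB1 (2.47, SE 0.16) and TRIB3 (1.64, SE 0.18). The median of that list was 0.33, or 0.01 on the deposited scale. For the interferon and insulin lists, the medians on the deposited scale are to be read against -0.32 over all genes.

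The list of BMP signalling and ID factors had the highest median of the lists without added families, 0.39 among 26 genes. It was 0.26 when array medians were subtracted and 0.04 on the deposited scale. The medians over all genes in these settings were -0.03, -0.10 and -0.32, in the same order. BAMBI, a decoy receptor that blunts TGF-beta signals, rose from 9.77 and 9.72 to 11.35 and 11.38 (difference 1.63, SE 0.16, limma adjusted p = 0.0237). The ligands BMP2 and BMP6, at 1.57 and 1.38, the inhibitor SMAD7, at 1.38, and the target ID3, at 1.34, met the separation rule without a call, with limma adjusted p from 0.0583 to 0.111. INHBA, a subunit of activin, was at 5.32 and 4.27 in control and 8.44 and 7.47 in DFO (difference 3.16, limma adjusted p = 0.0627). Over all probe sets a second one of INHBA was called at 2.30 (limma adjusted p = 0.0191), and the other lay at 0.45.

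Nuclear receptors and their coactivators had a median of 0.29 over 31 genes, of which 2 rose. PPARGC1A, a coactivator that drives mitochondrial and fasting genes, was at 6.08 and 5.98 in control and 7.95 and 7.93 in DFO (difference 1.91, SE 0.17, limma adjusted p = 0.0181), and the orphan receptor ESRRG was at 8.89 and 8.83 and then at 10.52 and 10.33 (1.56, SE 0.20, limma adjusted p = 0.0429). The related coactivator PPARGC1B was lower without a call, at -1.17 (SE 0.32, limma adjusted p = 0.23). RORA and the glucocorticoid receptor gene NR3C1 were higher by 1.38 and 1.34 and just missed the threshold, with limma adjusted p of 0.0508 and 0.0523. In the test over all probe sets 4 other probe sets of RORA were called, at differences from 1.97 to 2.80.

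Guidance, adhesion and matrix genes were split. In axon guidance 2 of 48 rose, the ephrin receptor EPHA2 (5.59 and 5.54, then 7.66 and 7.52) and its ligand EFNA1 (7.99 and 7.78, then 9.84 and 9.61), with limma adjusted p of 0.0149 and 0.0291. Among 41 genes of the extracellular matrix and its proteases, SERPINE2, a protease inhibitor, rose by 1.79 (SE 0.23, limma adjusted p = 0.0466). Its other probe set lay at -0.0003, with overlapping groups. The urokinase gene PLAU had a larger difference, 3.34, but its DFO arrays were 8.24 and 9.42, and the limma adjusted p was 0.0513. In the test over all probe sets both of its probe sets were called, at 3.34 and 3.46 (limma adjusted p = 0.0494 and 0.046). Limma called 0 of 26 cadherins and protocadherins and 0 of 27 integrin and focal adhesion genes, where 3 and 5 had an unadjusted p under 0.05. CDH1, the gene of E-cadherin, was at 10.49 and 10.62 in control and 11.45 and 11.42 in DFO (0.88, SE 0.17, limma adjusted p = 0.125).

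Ion channels were described in a pair of lists. Among 28 calcium channel, pump and sensor genes, with a median of 0.05, limma called 0 and 0 met the separation rule, and 1 was lower at an unadjusted p under 0.05. Among 24 potassium and sodium channel genes 1 rose and 5 were lower by the separation rule, 20.8% against 3.08% of all genes. The increase was in KCNE4, an accessory subunit of potassium channels, at 6.23 and 6.29 in control and 8.56 and 8.73 in DFO (2.39, SE 0.18, limma adjusted p = 0.0121), and all 3 of its probe sets were called. The sodium channel gene SCN2A was at 7.01 and 6.69 in control and 6.04 and 5.65 in DFO. SCN3A and SCN9A lay at -1.13 and -1.04 and the potassium channel genes KCNK3 and KCNMA1 at -1.27 and -1.12, and limma adjusted p for these 5 genes lay between 0.167 and 0.512. Each of them had DFO 2 below DFO 1.

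In the machinery of transcription, RNA processing and translation the called genes were single members. None of 50 genes of RNA polymerase II and Mediator and none of 38 translation factors was called by limma or met the separation rule, with 9 and 2 at an unadjusted p under 0.05. ELL2, an elongation factor, rose by 1.67 (SE 0.19, limma adjusted p = 0.0334), the splicing kinase CLK3 by 1.42 (SE 0.17, limma adjusted p = 0.04), the histone deacetylase gene HDAC5 by 1.54 (SE 0.19, limma adjusted p = 0.04), and ZFP36, which destabilises AU-rich mRNAs, by 1.59 (SE 0.18, limma adjusted p = 0.0343). The splicing factor gene SRSF1 and the RNA-binding protein gene HNRNPA0 were lower without a call, from 11.53 and 11.68 to 10.15 and 10.39 and from 11.06 and 11.07 to 9.90 and 9.73, with limma adjusted p of 0.0513 and 0.0523.

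In trafficking and turnover, 2 of 57 RAB GTPases and 2 of 47 deubiquitinases rose. RAB30, of the Golgi, rose by 1.61 (SE 0.17, limma adjusted p = 0.0282) and RAB38, known from pigment granules, by 1.30 (SE 0.16, limma adjusted p = 0.0424). The deubiquitinase genes were TNFAIP3 and CYLD, another inhibitor of NF-kB signalling (1.39, SE 0.17, limma adjusted p = 0.0369). FBXO32, a ubiquitin ligase subunit known from muscle atrophy, was at 8.54 and 8.17 in control and 9.97 and 9.75 in DFO without a call (limma adjusted p = 0.0587). SNAP25, a protein of synaptic vesicle fusion, was higher by 1.28 on its brightest probe set, also without a call (limma adjusted p = 0.0514), while a dimmer probe set was called at 2.12 in the test over all probe sets (limma adjusted p = 0.0244).

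**Figure D3:**
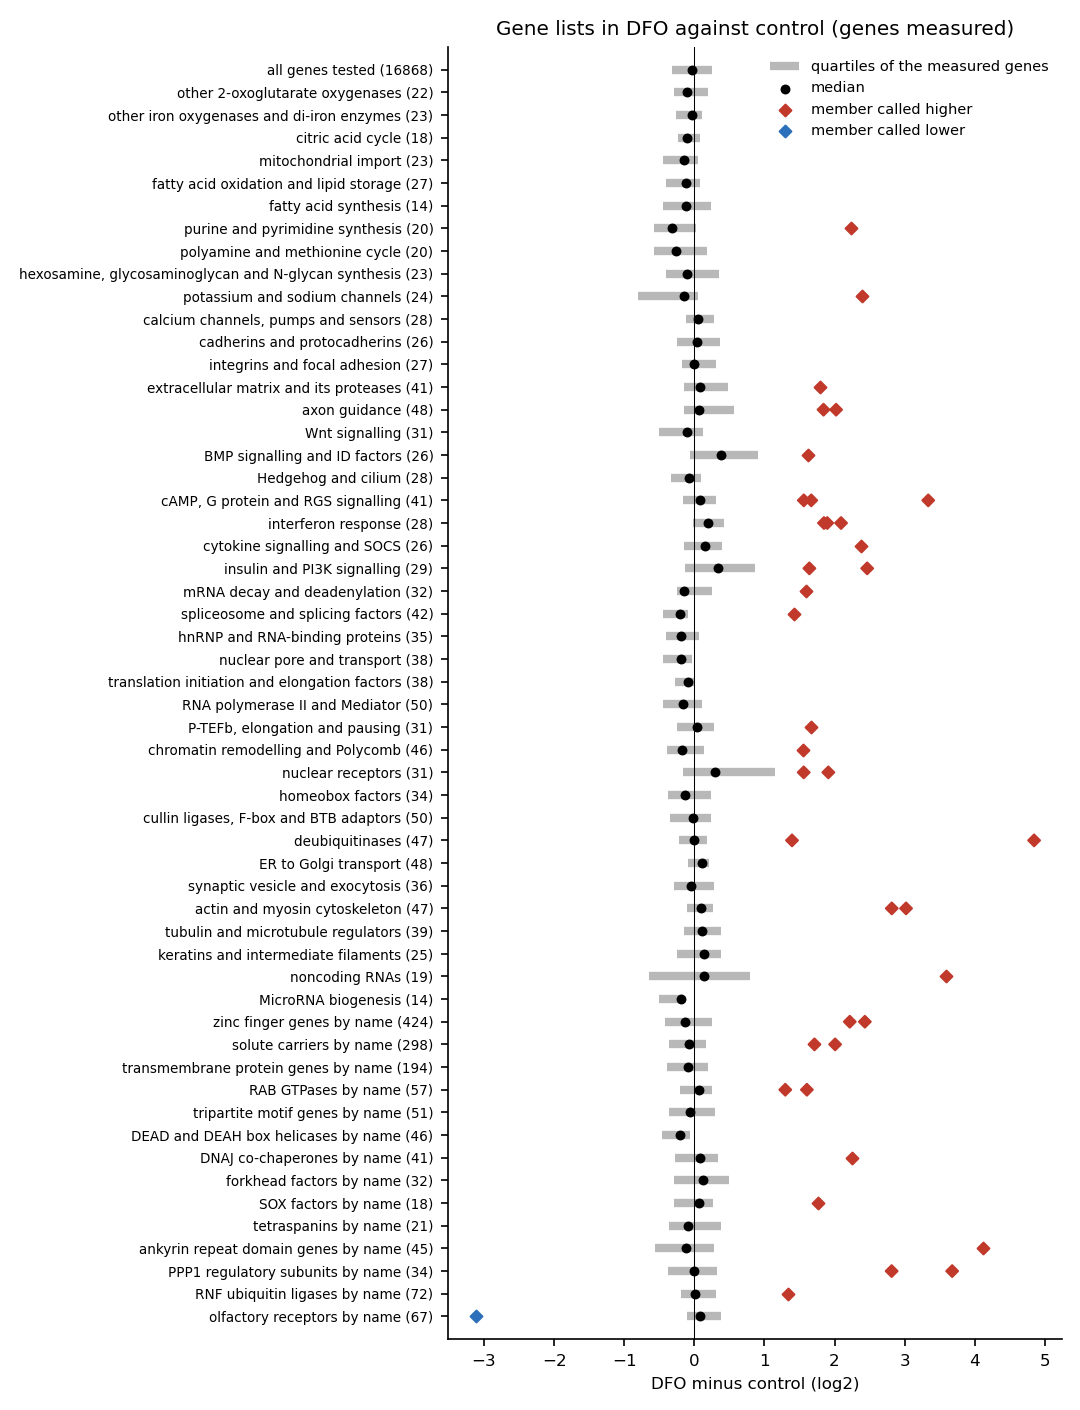
Median (black points) and quartiles (grey bars) of DFO minus control (log2) over the measured genes of each list, with the number measured in brackets and called members as diamonds, red where higher and blue where lower. The bars of most lists straddle 0 and called members lie far outside them, from -3.11 for OR51E2 to 4.85 for TNFAIP3.

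Large families defined by name gave the widest view. Of 424 zinc finger genes named ZNF, 2 rose (ZNF697 by 2.43 and ZNF292 by 2.22), while by the separation rule 6 were higher and 19 lower, 4.48% of the family against 3.08% of all genes. All 19 of those had DFO 2 at or below DFO 1 except ZNF503, at 9.16 and 9.21. Of 298 solute carriers, 2 rose, the glucose transporter SLC2A1 (9.31 and 9.33, then 11.22 and 11.44) and SLC3A2, the shared heavy chain of several amino acid transporters (9.05 and 9.02, then 10.75 and 10.74). Of 194 genes named TMEM, limma called 0, with 30 at an unadjusted p under 0.05. Of 67 olfactory receptor genes OR51E2 was the only call. Single calls were made in the DNAJ co-chaperones (DNAJB9, an endoplasmic reticulum chaperone partner, by 2.25), the SOX factors (SOX9, by 1.76) and the RNF ubiquitin ligases (RNF144B, by 1.33).

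Several small families held more than 1 called gene. They were picked after the calls were seen, so their counts are a description only. Of 22 measured genes named DUSP, some of which encode phosphatases of MAP kinases, 5 rose: DUSP5 by 3.07, DUSP1 by 2.74, DUSP10 by 2.46, DUSP8 by 1.76 and DUSP14 by 1.47. In the TNF receptor superfamily 4 of 19 rose, TNFRSF12A, the death receptor TNFRSF10B (6.87 and 6.64, then 8.61 and 8.63), TNFRSF21 (by 1.73) and the decoy receptor TNFRSF11B (by 1.38). The highest of that family by size, TNFRSF9, was at 5.24 and 5.08 in control and 8.34 and 9.49 in DFO and was not called (limma adjusted p = 0.064).

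A list of 17 small GTPases held those of the RND, RIT and RGK kinds together with others such as RASD1. Of these 5 rose, RIT1, RND1, RND3, GEM (by 1.88) and RASD1 (by 1.57). Among 14 adaptors and inhibitors of receptor tyrosine kinases 4 rose, PAG1, GAREM1 (7.98 and 8.18, then 10.65 and 10.72), the EGFR inhibitor ERRFI1 (8.34 and 8.27, then 10.81 and 10.94) and GRB10 (7.70 and 7.60, then 9.68 and 9.48). Both PFKFB3 and PFKFB4 rose among 4 enzymes of fructose 2,6-bisphosphate, and the alpha-arrestins ARRDC3 and TXNIP, the latter a restraint on glucose uptake, rose by 2.07 and 1.51 among 5. Of 33 KIF kinesins KIF20A was the only one called lower, while 5 were lower by the separation rule, with KIF14 at -2.57 and KIF11 at -1.29.

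The array's redundancy allowed a check of each call on other probe sets of the same gene. Over all 32242 probe sets that passed the filter, 265 were called higher (0.822%) and 13 lower (0.0403%). Of the 185 called genes 125 had 2 or more probe sets with a single symbol, and in 120 at least 2 passed the filter. In 110 of these 120 all probe sets moved in the same direction, in 38 all were called the same way, in 48 only 1 was called, and in 0 was a probe set called the other way (limma). In 12 of the 120, and in 7 called genes with a single probe set, 0 probe sets passed the test over all probe sets. In these 19 genes, among them SERPINE2, ESRRG, RAB38, RNF144B, TNFRSF11B and RASD1, the brightest probe set had a limma adjusted p of 0.0513 to 0.0613 there. In all, 164 of the 185 genes had their brightest probe set called. Conversely, 25 genes without a call had a called probe set. The 120 called genes with at least 2 such probe sets had 345 in all, of which 332 had the direction of the brightest and 190 were called. These counts include the brightest probe set of each gene, which matches itself by definition.

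Probe sets of 1 gene differed in size more than in direction. All 5 probe sets of RIT1 were called, with differences from 2.53 to 3.09, as were all 4 of VEGFA, the vascular endothelial growth factor gene, from 2.49 to 3.30, and all 4 of CREB5, from 1.68 to 4.17. ATF3 had 3 called probe sets, at 4.40, 4.35 and 2.51. In KLF6, a zinc finger factor, 4 of 5 were called between 2.35 and 2.63, and the dimmest (mean 6.14) lay at -0.05.

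Elsewhere a call rested on some of the gene's probe sets. FAM13A had 3 called probe sets at 3.04, 3.10 and 3.22 and another pair at -0.26 and -0.25. GADD45B had 3 called between 3.41 and 4.55 and 1 at 0.20, and CITED2 had 2 called and 1 dim probe set (mean 5.63) at -0.50. NEDD9 was called on its brightest probe set only, with the other 4 at 2.84, 1.17, 0.28 and 0.16, and CYLD was called on 1 of 7, the other 6 lying between -0.02 and 0.44. TLE1, a corepressor, was called on 2 of 5, at 1.87 and 3.01, and CREM on 3 of 5. Uncalled probe sets lay at 0.17 in P4HA1, 0.17 in HDAC5, 0.23 in PPARGC1A, 0.33 in EGR1, and 0.19 and 0.36 in ELL2. Among the decreases OR51E2 had 3 probe sets at -3.11, -2.06 and -1.88, CCNB1 had 2 at -2.06 and -2.81, and MYCL had a second, dimmer probe set at -0.25. COA7 and INSM1 each had a second probe set, dimmer and uncalled, at -1.41 and -1.27.

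**Figure D4:**
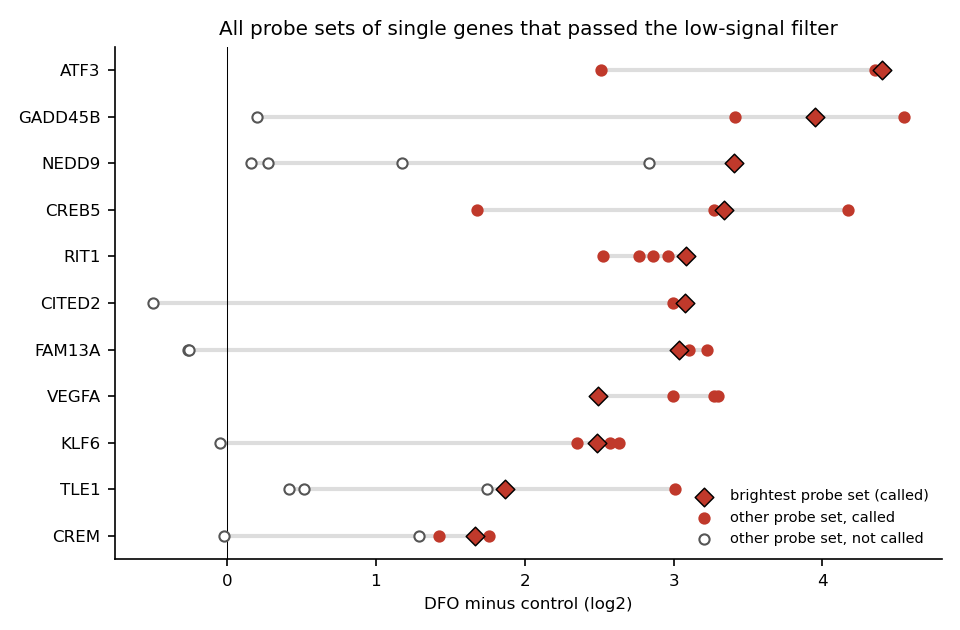
DFO minus control (log2) for every probe set that passed the filter on low signal in 11 called genes with at least 3 probe sets, with the brightest probe set as a diamond, other called probe sets in red and uncalled ones open. RIT1, VEGFA, CREB5 and ATF3 have called probe sets only, while FAM13A, CITED2, GADD45B and KLF6 each have probe sets near 0.

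Outside the calls, 339 genes were higher and 509 lower by the separation rule. The largest of these with a mean above 6.51, the 50th percentile, differed in how their arrays lay. TNFRSF9, PLAU and INHBA, given above, had groups several units apart with DFO arrays about 1 apart. FHL2, a LIM domain protein gene, was at 7.77 and 8.01 in control and 10.43 and 9.71 in DFO (2.18, SE 0.33, limma adjusted p = 0.0665), and LBH, a transcription cofactor gene, at 5.96 and 5.27 and then at 7.94 and 7.62 (2.17, SE 0.29, limma adjusted p = 0.0511). OR8G1 met the rule through DFO 2 alone, at 6.30 and 9.61 against 5.86 and 5.46 in control, and KCNK10 had a control array at 7.93 beside a DFO array at 7.94.

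Among decreases the largest such differences were in PLK1, KICS2, PIF1 and SNCAIP. PLK1, the kinase that governs mitotic progression, was at 12.78 and 11.91 in control and 7.79 and 9.30 in DFO, a difference of -3.80 (SE 0.83, limma adjusted p = 0.156). KICS2, a subunit of a complex that restrains mTORC1, was at 11.74 and 12.35 and then at 7.58 and 9.34, and the DNA helicase gene PIF1 at 11.91 and 11.29 and then at 7.51 and 8.93. SNCAIP, the gene of a synuclein-binding protein, was at 11.13 and 11.10 and then at 6.94 and 8.92. In all 4 the groups lay well apart while DFO 1 was below DFO 2 by 1.42 to 1.97, and the Dp44mT arrays of PLK1 were split alike, at 7.73 and 9.70.

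The mitotic genes ASPM, at 10.29 and 10.06 in control and 7.97 and 7.04 in DFO, and KIF14, at 10.07 and 9.76 and then at 7.90 and 6.78, had limma adjusted p of 0.0543 and 0.0996. The ubiquitin ligase gene RNF26 was at 9.19 and 8.87 and then at 6.86 and 6.39 (limma adjusted p = 0.0665). In ASPM, KIF14 and RNF26 both DFO arrays lay at least 1.85 below both control arrays.

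**Figure D5:**
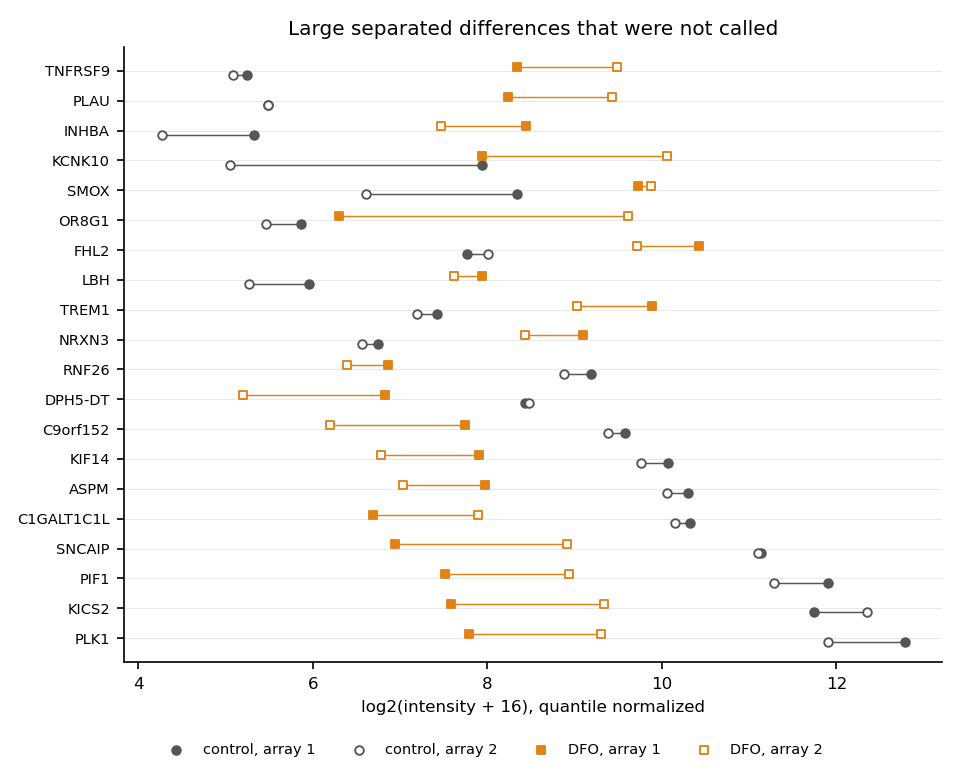
Level in log2(intensity + 16) on each control array (grey circles) and each DFO array (orange squares), filled for array 1 and open for array 2, for the 10 largest uncalled differences in each direction under the separation rule. The DFO arrays differ by up to 3.30 (OR8G1), and KCNK10 has control 1 and DFO 1 at 7.93 and 7.94.

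Promoters were read for the core of the binding site of the hypoxia-inducible factors, the letters ACGTG or GCGTG on either strand, because several of the largest increases were in known targets of these factors. RefSeq promoters (GRCh38.p14) ran from 250 bases before to 50 after the start given for the gene with its promoter. In KDM3A and CREB5 that start lay inside the gene's annotated span. Promoters were matched for 151 of the 175 genes called higher and for 13343 of all genes tested. Of the 151, 70.2% held ACGTG or GCGTG, against 58.6% of all promoters, and 37.7% held ACGTG against 24.9%. CACGTG, which contains ACGTG and is also the E-box of MYC and USF factors, stood in 19.2% against 9.39%. The AP-1 site TGACTCA stood in 3.97% against 3.49% and the ATF4 site TGATGCAA in 1.99% against 0.607%. GCGTG by itself stood in 49.7% against 46.4%. Only 5 of the 10 genes called lower had a promoter, and 4 of these held ACGTG or GCGTG and 3 held CACGTG. By the separation rule, ACGTG or GCGTG stood in 61.6% of the promoters of higher genes (406 with a promoter) and in 62.2% of those of lower genes (429). The letters TTTGAA, contained in the cell cycle element CHR, stood in 18.4% of the lower and 11.8% of the higher genes' promoters, against 11.1% of all. These shares are descriptions and carry no test.

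The 250 bases before the start of 4 genes show how such letters lie in genes that moved in opposite directions. Among the increases ranked 11 to 40 and the decreases, these genes had the most matches in the 300 bases, 4 in DDIT4, PPP1R15A and COA7 and 3 in CCDC154. STC2 and CCNB1 also had 3, and CCDC154 was taken from these because its difference was the largest. A CACGTG reads ACGTG on both strands and counts as 2 matches. Each is written 5′ to 3′ on the strand of the gene, with ACGTG or GCGTG in capitals on either strand (read as CACGT or CACGC on the other). DDIT4 (chr10:72273674-72273923, plus strand) and PPP1R15A (chr19:48872171-48872420, plus strand) rose, and COA7 (chr1:52698348-52698597, minus strand) and CCDC154 (chr16:1444557-1444806, minus strand) fell, all in GRCh38.p14 coordinates.
DDIT4: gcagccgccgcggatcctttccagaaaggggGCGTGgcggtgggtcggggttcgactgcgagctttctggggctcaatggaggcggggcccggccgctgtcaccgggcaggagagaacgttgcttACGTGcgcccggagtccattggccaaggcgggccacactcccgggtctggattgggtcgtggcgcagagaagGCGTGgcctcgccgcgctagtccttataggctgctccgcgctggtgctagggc
PPP1R15A: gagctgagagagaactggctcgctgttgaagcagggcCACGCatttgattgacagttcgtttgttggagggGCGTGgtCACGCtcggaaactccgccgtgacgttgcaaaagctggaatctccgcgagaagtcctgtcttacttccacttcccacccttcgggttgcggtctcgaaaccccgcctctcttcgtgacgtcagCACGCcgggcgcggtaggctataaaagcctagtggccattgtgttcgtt
COA7: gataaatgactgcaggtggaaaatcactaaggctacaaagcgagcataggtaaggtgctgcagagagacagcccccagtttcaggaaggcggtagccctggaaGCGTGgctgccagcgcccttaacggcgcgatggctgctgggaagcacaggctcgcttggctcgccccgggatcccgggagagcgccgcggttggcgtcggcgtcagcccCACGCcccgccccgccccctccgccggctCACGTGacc
CCDC154: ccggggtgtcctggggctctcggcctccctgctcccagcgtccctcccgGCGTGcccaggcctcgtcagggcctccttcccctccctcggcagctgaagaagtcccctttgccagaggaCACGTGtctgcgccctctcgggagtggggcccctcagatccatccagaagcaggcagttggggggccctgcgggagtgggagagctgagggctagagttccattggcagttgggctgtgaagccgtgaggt

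The printed 250 bases hold 3 stretches in capitals in DDIT4 and 4 in PPP1R15A, with no CACGTG. COA7 has 3 stretches and CCDC154 2, of which 1 in each is a CACGTG. The promoters were picked for their matches, so these counts say nothing about increases against decreases.

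Dp44mT arrays were used to place the DFO differences. Limma called 0 genes higher (0%) and 0 lower (0%) in Dp44mT against DFO, and 718 genes (4.26%) had an unadjusted p under 0.05. Of the 185 genes called for DFO, 35 (18.9%) were among them, 18 being higher in Dp44mT. The calls and this comparison share the DFO arrays and the estimate of the spread. Genes with a small spread are favoured in both, so the 18.9% cannot be set against the 4.26%. CCN2 was at 6.26 and 5.30 in Dp44mT against 8.29 and 7.80 in DFO. CCDC154 was at 4.80 and 4.12 against 6.91 and 6.10, and NPTX1 at 7.67 and 7.32 against 9.13 and 8.98. Doses differed, 25 µM against 250 µM, so no ranking of the chelators was made.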

How the data were processed

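Total RNA from DMS-53 cells was hybridized to 6 Affymetrix arrays, 2 per group. The deposited values are linear probe set intensities, for which the submitters' processing notes name Affymetrix Expression Console 1.1. The summarization and normalization are not given in the sources used here, and the number of arrays limits the precision (median half-width of the 95% intervals 0.642).

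The log2(intensity + 16) values of 54675 probe sets were quantile normalized over 6 arrays with limma 3.58.1 in R 4.3.3. The platform annotation gave 1 symbol for 41097 probe sets, several for 1801 and none for 11777. Only probe sets with 1 symbol were used. Each gene took its brightest probe set, and genes with a mean over the 6 arrays under the 25th percentile of probe sets (5.55) were left out. The moderated test (3 residual and 2.22 prior degrees of freedom, two-sided) had all 3 groups in the model. It takes the arrays as independent, although deviations of same-numbered DFO and Dp44mT arrays correlated at 0.843. The Dp44mT arrays may therefore add less to the estimate of the spread than the test assumes. The script was tested on simulated data.

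The comparison, the gene lists and the naming rule were chosen with earlier results of these data known. Named were increases ranked 11 to 40, all decreases, called list members (up to 4, or else the member with the smallest p), called genes with at least 3 probe sets and the widest range or most calls (6 each), and the 10 largest uncalled separated differences each way. Other genes named, including the added families, the uncalled list members beyond the first, the marker genes and the genes set beside Dp44mT, were chosen after their values were seen.

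Alternatives changed the scaling, pseudocount, filter, probe set rule, variance model, arrays and replicate block.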

Additional observations from a re-analysis of the deposited data

How the results depend on the processing

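The number of genes called higher, 175, became 18 on the deposited scale, 85 with array medians subtracted, 58 with DFO and control arrays alone, 346 with limma's trended robust variance and, in a fit added after seeing the data, 74 without the second array of each chelator. The 10 genes called lower became 1 with DFO and control arrays alone, 6 with a pseudocount of 1, 38 with 64, 33 with a filter at the 50th percentile, 17 with probe sets averaged and 79 with the trended variance. Genes higher by the separation rule (514) numbered 331 on the deposited scale. Genes lower by it (519) numbered 1313 on the deposited scale, 252 with a pseudocount of 64 and 281 without the second chelator arrays. The 265 probe sets called higher became 27 on the deposited scale, 146 with medians subtracted, 104 with DFO and control arrays alone, 170 with a pseudocount of 1, 413 with the 50th percentile filter, 565 with the trended variance and 631 without the second chelator arrays. The 13 called lower became 7 on the deposited scale, 3 with DFO and control arrays alone, 3 with a pseudocount of 1, 52 with 64, 44 with the 50th percentile filter, 115 with the trended variance and 113 without the second chelator arrays. Leaving out each array in turn gave 0 calls for genes and for probe sets in each direction (limma, with 861 to 2391 genes at an unadjusted p under 0.05), and the separation rule then gave 502 to 1764 genes higher and 244 to 1185 lower. The replicate block by set number gave 151 genes higher and 18 lower, and 29 probe sets lower, with 140 of the 185 called. The labels do not say whether set numbers pair arrays: deviations of same-numbered arrays correlated at -0.254 between control and DFO, -0.353 between control and Dp44mT and 0.843 between DFO and Dp44mT. A crossed block, chosen after seeing this, gave 398 genes higher and 113 lower. C11orf96 reversed to -0.25 with DFO and control arrays alone and to -0.14 without the second chelator arrays, since its other probe set was then the brighter. The cause of the other changes was not tested. With 2 arrays per group, signal near background limits genes with a dim control.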

Other observations

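Transcripts of several stromal genes differed by more than 1 (log2) between the 2 arrays of every group. COL1A2, a collagen chain gene, was at 7.85 and 5.57 in control, 7.59 and 9.03 in DFO and 7.55 and 9.28 in Dp44mT, each pair being arrays 1 and 2. COL3A1, another collagen chain gene, was at 8.03 and 5.80, 7.49 and 8.92, and 7.59 and 8.65 in the same order. The matrix protein genes DCN and POSTN followed the same order, DCN at 7.59 and 5.70 in control and 7.14 and 8.92 in DFO, and POSTN at 7.91 and 6.07 in control and 7.62 and 9.26 in DFO. PECAM1, an adhesion gene of endothelium, was at 9.32 and 8.04 in control, 8.75 and 10.50 in DFO and 9.17 and 10.87 in Dp44mT. In each of these 5 genes control 2 was the lowest of the 6 arrays and the second array of each chelator lay above all arrays of set 1. DFO and control arrays overlapped in each of them, and none was called. These genes were singled out after their values were seen, and the cause was not tested. The other fibroblast and endothelial markers measured did not differ by more than 1 in every group. COL1A1 was at 8.50 and 8.54 in control and 8.10 and 8.66 in DFO, and LUM at 6.48 and 6.74 and then at 6.22 and 6.51. KCNK10, which is not a marker of these types, also split in every group. It was at 7.93 and 5.05 in control, 7.94 and 10.06 in DFO and 7.41 and 10.76 in Dp44mT. The 1720 genes with DFO 2 above DFO 1 by at least 1 had a median control mean of 6.76, against 7.73 over all genes tested.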
